A study of Mus musculus with 6 samples.

Results

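Rasl10b and 9 further genes for atypical RAS-like GTPases (Rasl10a, Rasl11a, Rasl11b, Rasd1, Rasd2, Gem, Rrad, Rem1 and Rem2) were followed by symbol in the series table. All 10 were found, each in 1 row, among 39179 listed genes. Rasl10b was chosen by its RPKM, which was far higher after both treatments than in vehicle, and the other members were taken for their kinship with it, with earlier results of these data known. The values of Rasl10b against vehicle are therefore given as a description, without a test.

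The samples are Ocy454 cells, a mouse osteocytic cell line of which the study used 1 single-cell subclone. Cells grown to confluence at 33 °C were kept for 14 days at 37 °C, with new medium the day before collection, and were then treated for 4 h. The 3 conditions, with 2 libraries each, were vehicle (VEH, given in the labels as PBS with 25 mM HCl), parathyroid hormone (PTH 1-34, 1 nM) and YKL-05-093 (YKL, 0.5 µM), a small molecule that inhibits the salt-inducible kinases. The study's methods speak of compounds dissolved in DMSO for work on cultured cells, and whether the vehicle libraries received DMSO is not stated. They call the libraries of a condition experimental duplicates without saying whether these were separate cultures, so p-values measure only the spread between these libraries, which may be technical. The study asked which effects of PTH, a hormone that acts through cAMP and protein kinase A, are also seen when the salt-inducible kinases are inhibited. According to the study, the inhibitor also targets other kinases in vitro. Most of the genes measured there depended on salt-inducible kinases for their response to the inhibitor. Among these were Wnt4 and Cd200, which PTH and the inhibitor both regulated. A minority still responded to the inhibitor in cells deficient in these kinases. Which kinase lies behind a change with the inhibitor was not tested here.

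RAS-like GTPases switch between a GTP-bound and a GDP-bound form, and classical RAS is held at the membrane by lipid that is added to a C-terminal CAAX box, which is a cysteine followed by the last few residues. RASL10A and RASL10B are small relatives of RAS that have been little studied, RASL11A is a nucleolar protein linked to ribosomal RNA transcription, and RASL11B is its closest relative. RASD1 (Dexras1) was found as a glucocorticoid-induced RAS and activates G-protein signalling, and RASD2 (Rhes) is best known from the striatum. GEM, RRAD, REM1 and REM2 form the RGK group, which binds calcium channel beta subunits and restrains high-voltage calcium channels.

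The last 30 coding bases of 6 members, stop codon included, are shown because the C terminus separates these groups. They were read from the GENCODE transcripts of GRCm38, 5′ to 3′, and cysteine codons are in capitals.
Rasl10b: ctgcgccgcaaccgcTGCgccatcatgtga
Rasl10a: ctgcacccagcgcgcTGCagcctcatgtga
Rasl11a: aaagcgaaagcgtcctccgccctggggtga
Rasl11b: gccaaagtgaggactgtcacgtcggtctga
Gem: aaatccTGCcatgacctgtctgtgctctag
Rrad: aagtccTGCcatgacctctctgttctctaa
Rasl10b and Rasl10a have the cysteine codon of a CAAX box, 4 codons from the end, and so do Rasd1 and Rasd2. Rasl11a and Rasl11b have no cysteine codon in this stretch. In Gem and Rrad, as in Rem1 and Rem2, it lies 7 codons from the end. Translated and aligned, Rasl10b and Rasl10a were identical at 54.0% of 198 aligned residues, and both coding sequences hold 203 codons. Rasl11a and Rasl11b were identical at 49.6%, Rasd1 and Rasd2 at 62.6%, and the 4 RGK members at 49.8% to 59.9% in pairs. Rasl10b and Rasl11a shared 31.6%.

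Expression was deposited as RPKM, reads scaled by gene length and by the reads of the library, which can be compared between genes because it is taken per length. The whole reads behind each RPKM were recovered from the steps between values, and 3 reads or fewer were treated as the floor of detection. Library totals lay between 17505798 and 27983585 reads. The median absolute log2 difference between replicates over 14264 genes was 0.333 for the vehicle pair, 0.108 for the PTH pair and 0.103 for the YKL-05-093 pair. Of the osteocyte and late osteoblast markers, 8 of 11 passed the filter: Col1a1 (259 to 430 RPKM), Pdpn (53.1 to 171), Pth1r (33.4 to 70.7), Sp7 (11.1 to 46.0), Runx2 (7.02 to 19.5), Bglap (6.61 to 27.1), Phex (0.764 to 4.93) and Dmp1 (0.376 to 1.15), whereas Mepe, Sost and Fgf23 were under 0.5 in all 6 libraries. Muscle markers were under 0.5 RPKM throughout, as were Pecam1 and Cdh5 of endothelium, Adipoq of adipocytes, Ptprc and Csf1r of blood cells, and Snap25, Syt1 and Rbfox3 of neurons. Fabp4, Cd68 and Tubb3 of these lists were above it in every library, and their sums overlapped between conditions.

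Rasl10b went from the edge of detection in vehicle to a level like that of its closest relative after PTH, and higher again after YKL-05-093. The gene (ENSMUSG00000020684) lies on the plus strand of chromosome 11 of GRCm38 from 83409137 to 83421039, and no annotated gene overlaps it. It had 0.0713 and 0.107 RPKM in the vehicle libraries, from 5 and 12 reads. After PTH, the values were 2.73 and 2.85 RPKM, from 236 and 218 reads. After YKL-05-093, they were 4.99 and 4.67 RPKM, from 405 and 388 reads. The 3 conditions were fully separated, with both vehicle libraries lowest and both YKL-05-093 libraries highest. The vehicle mean was 0.0892 ± 0.0253 RPKM (SD, n = 2), the PTH mean 2.79 ± 0.0896 and the YKL-05-093 mean 4.83 ± 0.223.

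Taken from the pooled reads, the rate of Rasl10b was 29.9 times that of vehicle after PTH (exact 95% interval 18.4 to 51.7) and 51.7 times after YKL-05-093 (32.1 to 89.2). Reads here carry no molecular identifiers and are not independent molecules, so the intervals stand for counting error alone, and they are wide because vehicle holds 17 reads in all. They are no test of the rise, since Rasl10b was chosen for it. On the log2(RPKM + 0.1) scale, which understates the change of low genes, the differences of the means were 3.94 and 4.71. By this difference, Rasl10b stood in place 8 of 14261 genes after PTH and in place 1 of 14255 after YKL-05-093, counted from the largest rise. Both differences are measured against the same vehicle libraries. In these bulk libraries, fewer expressing cells and less RNA per cell cannot be told apart.

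The direct comparison of PTH with YKL-05-093 uses no vehicle library, but Rasl10b was chosen for high values in these same treated libraries. The interval and adjusted p given next are therefore not independent of that choice. The difference put Rasl10b lower after PTH by 0.77 on the log2 scale. Its standard error was 0.10, its 95% interval ran from -0.99 to -0.55, and the adjusted p was 9.22e-05 (limma on all genes, Benjamini-Hochberg). This is under the limit of 2-fold used for calls. Of all genes, 9.97% had an adjusted p under 0.05 in this comparison. With all 6 libraries in 1 fit, where the wider spread of the vehicle pair counts, the adjusted p was 0.125, and without PTH replicate 1 or 2 it was 0.135 and 0.115. Without YKL replicate 1 or 2, it stayed under 0.05, at 0.0292 and 0.0293.

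**Figure D1:**
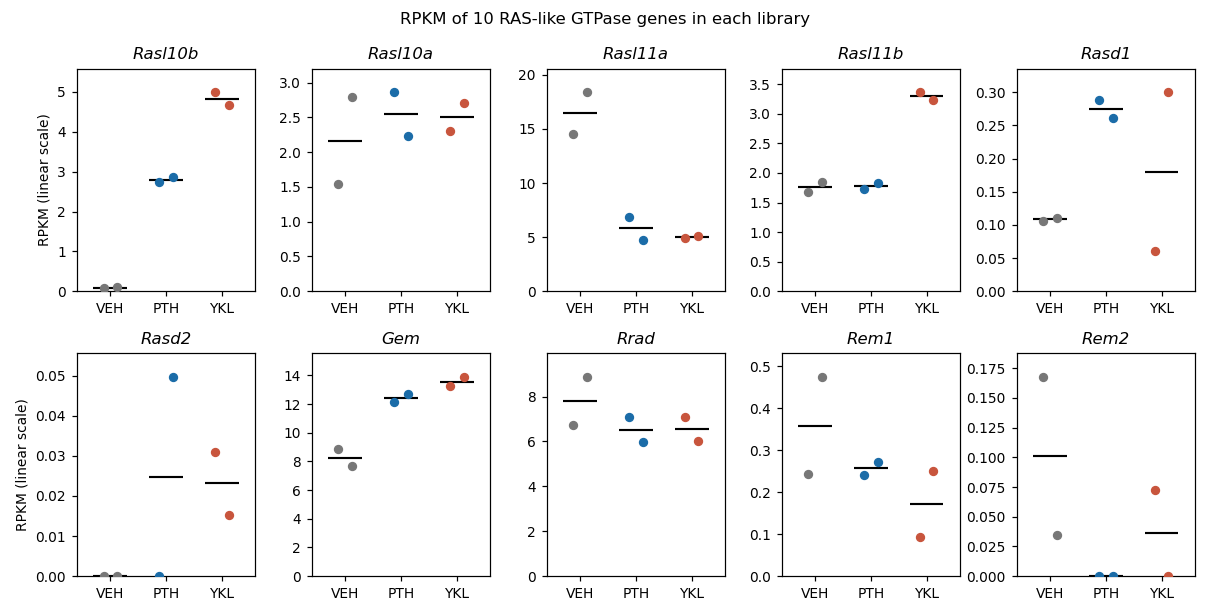
RPKM of each of the 10 genes (linear vertical axes, each starting at 0) in the 2 vehicle (VEH), 2 PTH and 2 YKL-05-093 (YKL) libraries; points are libraries and lines are means of 2. Rasl10b goes from 0.0892 to 2.79 and 4.83, Rasl11a from 16.4 to 5.83 and 5.02, and the mean of Rasl11b is 3.30 in the YKL libraries against 1.76 in VEH and 1.79 in PTH.

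Rasl10a, the closest relative of Rasl10b by sequence, was already present in vehicle and varied as much between the vehicle replicates as between conditions. Its vehicle libraries held 1.54 and 2.79 RPKM, its PTH libraries 2.86 and 2.23, and its YKL-05-093 libraries 2.31 and 2.70. All 3 conditions overlapped. The log2 fold change was 0.27 for PTH (95% interval -0.45 to 0.99, adjusted p = 0.785 from limma), while YKL-05-093 gave 0.26 (-0.47 to 0.98, adjusted p = 0.889 from limma), intervals that leave room for a change of just under 2-fold. Both signs turned without vehicle replicate 1, to -0.14 and -0.15. Exons of Gas2l1 overlap Rasl10a on the opposite strand (chromosome 11, 5058128 to 5060385), and whether the counting used the strand is not given in the sources used here. Gas2l1 had 7.43 ± 0.308 RPKM in the vehicle libraries, 6.48 ± 0.219 in those of PTH and 6.21 ± 0.717 in those of YKL-05-093.

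Rasl11a fell after both treatments, to 0.349 of the vehicle rate after PTH and 0.297 after YKL-05-093 in pooled reads. In vehicle, it was the most abundant of the 10 genes, with 14.5 and 18.4 RPKM from 285 and 577 reads. The PTH libraries had 6.89 and 4.77 RPKM and the YKL-05-093 libraries 4.96 and 5.07. Every treated library lay below both vehicle libraries, and the 2 YKL-05-093 values fell between the 2 PTH values. The vehicle mean was 16.4 ± 2.73 RPKM (SD, n = 2), the PTH mean 5.83 ± 1.5 and the YKL-05-093 mean 5.02 ± 0.0744.

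PTH changed Rasl11a by -1.49 on the log2 scale, with a standard error of 0.23 and an adjusted p of 0.0206 from limma. The change with YKL-05-093 was -1.68, with a standard error of 0.19 and an adjusted p of 0.02 from limma. Between the treatments, the difference was 0.19 with a 95% interval of -0.18 to 0.56 (adjusted p = 0.598 from limma), so it was not told from the spread between these libraries. Both calls against vehicle were lost when the spread was modelled on the mean RPKM (adjusted p = 0.0586 and 0.0684) and without the filter on low values (adjusted p = 0.160 for both). Leaving out 1 library also ended them: the adjusted p for PTH was 0.0508 without PTH replicate 1 and 0.269 without PTH replicate 2, and that for YKL-05-093 was 0.133 without YKL replicate 1. The gene (ENSMUSG00000029641, chromosome 5 of GRCm38, 146845071 to 146847726, plus strand) overlaps no other annotated gene.

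Rasl11b, the closest relative of Rasl11a, differed between the 2 treatments. The vehicle libraries had 1.67 and 1.85 RPKM, the PTH libraries 1.73 and 1.84, and the YKL-05-093 libraries 3.36 and 3.24, from 61 to 142 reads each. The PTH values lay between the vehicle values, and both YKL-05-093 values were above all others. PTH was lower than YKL-05-093 by 0.85 on the log2 scale (standard error 0.16, 95% interval -1.19 to -0.52, adjusted p = 0.00173 from limma), under the limit of 2-fold. The change from vehicle was 0.02 for PTH (95% interval -0.45 to 0.48) and 0.87 for YKL-05-093 (0.43 to 1.31), the latter with an adjusted p of 0.135 from limma. Over the alternatives that kept all libraries, this adjusted p ranged from 0.0415 (1 fit of all 6 libraries) to 0.317 (no filter on low values). The direct difference had an adjusted p of 0.0667 with all 6 libraries in 1 fit, 0.0550 without the filter, and between 0.0717 and 0.183 with any 1 of its 4 libraries left out. The gene (ENSMUSG00000049907) lies on chromosome 5 of GRCm38 from 74195286 to 74199481, on the same chromosome and strand as Rasl11a.

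Promoter windows of 300 bases, 250 before and 50 after the start, were matched in RefSeq (GRCm38.p6) for 6 of the 10 genes. Rasl10b, Rasd1, Gem and Rrad had no entry. The windows of the 2 RASL11 genes are shown because these relatives differed in their response, and capitals mark a match to TGACG, the core of the cAMP response element, on either strand (it reads CGTCA on the opposite one).
Rasl11a, chr5:146844821-146845120, plus strand: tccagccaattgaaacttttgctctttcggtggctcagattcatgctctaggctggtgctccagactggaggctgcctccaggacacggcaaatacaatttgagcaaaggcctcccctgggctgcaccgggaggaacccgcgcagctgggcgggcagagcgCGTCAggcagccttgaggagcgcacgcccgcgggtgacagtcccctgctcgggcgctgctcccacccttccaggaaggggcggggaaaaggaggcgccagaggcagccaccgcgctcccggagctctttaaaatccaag
Rasl11b, chr5:74195076-74195375, plus strand: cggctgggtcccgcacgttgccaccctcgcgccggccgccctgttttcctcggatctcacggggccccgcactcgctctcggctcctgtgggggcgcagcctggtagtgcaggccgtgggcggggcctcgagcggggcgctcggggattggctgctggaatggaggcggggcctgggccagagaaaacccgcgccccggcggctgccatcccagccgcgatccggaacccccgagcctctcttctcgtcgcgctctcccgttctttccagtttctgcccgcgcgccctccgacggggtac
The core TGACG was found in the windows of Rasl11a, at -89 from the start, and of Rem1, but in none of the other 4, and 20.8% of all 32851 windows hold it. The full element TGACGTCA, which contains this core and is held by 1.79% of windows, and the AP-1 site TGANTCA, held by 7.81%, were in none of the 6. A match is a run of letters and not a site of binding. The window of Rasl11b had 37 CG pairs and that of Rasl11a 19, at 73.0% and 63.7% G and C, where the median of all windows is 52.7%.

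Gem and Rrad were the 2 RGK genes with reads in quantity, and Gem was the most abundant of the 10 after either treatment. Gem (ENSMUSG00000028214, chromosome 4 of GRCm38, 11704457 to 11714752) stood at 8.84 and 7.70 RPKM in the vehicle libraries, 12.2 and 12.7 in those of PTH, and 13.3 and 13.9 in those of YKL-05-093. Every treated library lay above both vehicle libraries. The log2 fold change was 0.59 for PTH (95% interval 0.21 to 0.97, adjusted p = 0.156 from limma), while YKL-05-093 gave 0.71 (0.33 to 1.09, adjusted p = 0.159 from limma), neither of which passed. Over the alternatives that kept all libraries, the adjusted p of Gem from limma ranged from 0.0519 to 0.296 for PTH. For YKL-05-093 it ranged from 0.0372 to 0.354, and both lowest values came from 1 fit of all 6 libraries. With 1 library left out, the log2 fold change ran from 0.49 to 0.69 for PTH and from 0.61 to 0.81 for YKL-05-093. The adjusted p then depended strongly on which library was left out. PTH differed from YKL-05-093 by -0.12 (95% interval -0.30 to 0.05, adjusted p = 0.436 from limma).

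For Rrad, the vehicle libraries gave 6.73 and 8.85 RPKM, those of PTH 7.07 and 5.98, and those of YKL-05-093 7.10 and 6.02. The conditions overlapped, and the means of the treatments were nearly the same, at 6.53 ± 0.776 and 6.56 ± 0.762 RPKM. The log2 fold change was -0.24 for both PTH (95% interval -0.71 to 0.22) and YKL-05-093 (-0.71 to 0.24). Exons of Gm33023 overlap Rrad on the opposite strand (chromosome 8, 104628070 to 104631327).

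**Figure D2:**
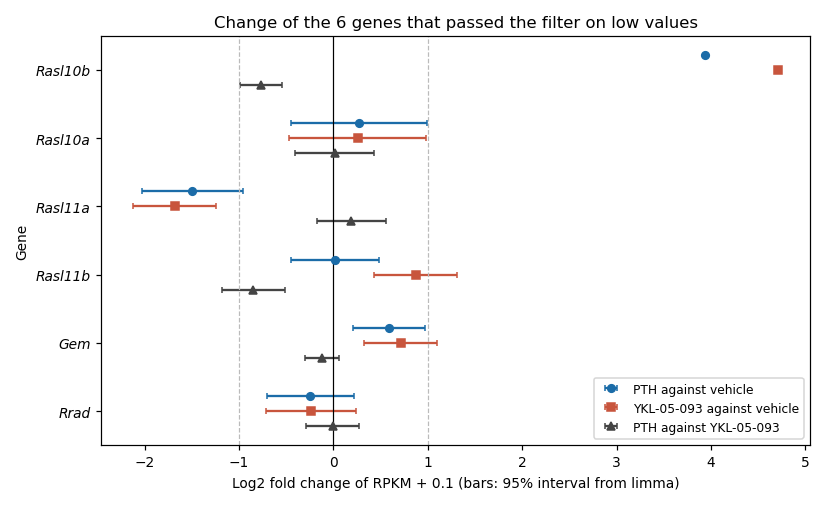
Log2 fold change of RPKM + 0.1 (horizontal axis) for the 6 genes that passed the filter (vertical axis), for PTH against vehicle, YKL-05-093 against vehicle and PTH against YKL-05-093; bars are 95% intervals from limma, left out for Rasl10b against vehicle, and dashed lines mark 2-fold. Rasl11a lies near -1.49 and -1.68 for the treatments, and Rasl11b at 0.02 and 0.87.

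The remaining 4 genes, Rasd1, Rasd2, Rem1 and Rem2, were under 0.5 RPKM in all 6 libraries and did not enter the main tests. Rasd1 was covered by 3 and 5 vehicle reads, 10 and 8 PTH reads, and 2 and 10 YKL-05-093 reads. Both PTH libraries (0.288 and 0.261 RPKM) were above both vehicle libraries (0.107 and 0.111), while the YKL-05-093 libraries, at 0.0613 and 0.300 RPKM, were the lowest and the highest of all. The pooled rate of Rasd1 after PTH was 2.52 times that of vehicle, with an exact 95% interval for counting error of 1.04 to 6.69.

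Rem1 had 9 and 28 vehicle reads, 11 in either PTH library, and 4 and 11 with YKL-05-093. Its vehicle libraries, at 0.243 and 0.474 RPKM, spanned most of the range, and the lower of them overlapped both treatments. The pooled rate of Rem1 with YKL-05-093 was 0.449 of that in vehicle, with an exact 95% interval for counting error of 0.229 to 0.839. Rem2 had 6 and 2 vehicle reads, 0 in both PTH libraries, and 3 and 0 with YKL-05-093. The exact 95% interval for counting error of its PTH rate over that of vehicle ran from 0 to 0.655, with 8 vehicle reads in all. Rasd2 had 0 reads in both vehicle libraries, 0 and 3 with PTH, and 2 and 1 with YKL-05-093, all at or under the floor. No change of Rasd2 was detectable at this depth. In the main fits, none of the 4 genes was tested against the spread between libraries. Without the filter on low values, limma gave an adjusted p of 0.420 for Rasd1 and 0.636 for Rem2 with PTH. For Rem1 with YKL-05-093, it was 0.843.

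**Figure D3:**
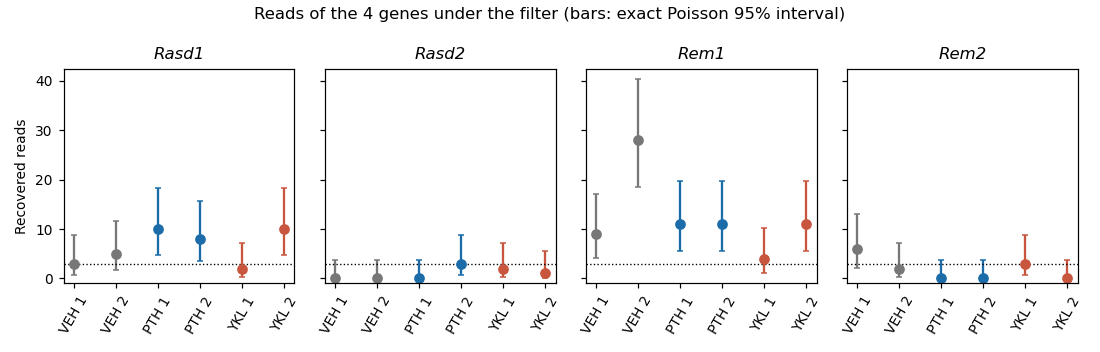
Recovered reads (vertical axis) of Rasd1, Rasd2, Rem1 and Rem2 in each of the 6 libraries (horizontal axis), with exact Poisson 95% intervals; the dotted line marks the floor of 3 reads. All 6 values of Rasd2 are at or under the floor, and the highest value of any of the 4 genes is 28, for Rem1 in vehicle replicate 2.

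In vehicle, the order of the levels per length was Rasl11a (16.4 RPKM), Gem (8.27), Rrad (7.79), Rasl10a (2.17), Rasl11b (1.76), Rem1 (0.359), Rasd1 (0.109), Rem2 (0.101), Rasl10b (0.0892) and Rasd2 (0). Libraries overlapped between Gem and Rrad, between Rasl10a and Rasl11b, and among Rasd1, Rem2 and Rasl10b. After PTH, Gem (12.4 RPKM) came first, Rrad (6.53) and Rasl11a (5.83) overlapped, and Rasl10b (2.79) overlapped Rasl10a (2.55). After YKL-05-093, Rasl10b (4.83) had reached Rasl11a (5.02), with overlapping libraries, and stood above Rasl11b (3.30) and Rasl10a (2.51), which it did not overlap.

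Across the table, 1.91% of the genes tested were called for PTH and 0.666% for YKL-05-093 (adjusted p under 0.05 from limma and more than 2-fold). Rasl10b, which was chosen for its response and passed the filter only through the treated libraries, is left out of the counts against vehicle. Of the other 5 members that passed, 1 was called in each comparison, Rasl11a. Of all tested genes, 1.09% were called higher and 0.813% lower for PTH, and 0.393% higher and 0.274% lower for YKL-05-093. Between PTH and YKL-05-093, where 1.21% of all genes were called by limma, the count for the members was 0. An unadjusted p under 0.05 was held by 2 of them, Rasl10b and Rasl11b, as by 22.3% of all genes. Rasl10b is counted here, though it was chosen for its values in these same treated libraries. Of the other 5 members, only Rasl11b had such a p. Between the treatments, voom on the recovered reads also called 0 members. Without Rasl10b, the median log2 fold change of the 5 members was 0.02 for PTH, 0.26 for YKL-05-093 and -0.01 between them, beside -0.03, -0.04 and 0.01 over all tested genes.

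Genes with the pattern most like that of Rasl10b were sought by the Euclidean distance over 6 libraries of log2(RPKM + 0.1), each gene set against its own vehicle mean, among 11885 genes with at least 50 reads on average. The nearest was Vdr, the vitamin D receptor, at a distance of 1.37. Its mean was 3.86 RPKM in the vehicle libraries, 58.2 in those of PTH and 54.8 in those of YKL-05-093. Its treatment means were in the reverse order of those of Rasl10b. The added 0.1 understates the rise of Rasl10b, which is low in vehicle, more than that of Vdr. With 0.01 added instead, the differences of Rasl10b were 4.84 for PTH and 5.63 for YKL-05-093. Distances were not computed at that setting. Of the next nearest, Tnfsf11 (2.99), which encodes RANKL, Kcnk10 (3.12), a potassium channel, and Nr4a2 (3.31), an orphan nuclear receptor, are given here. The difference from vehicle in Tnfsf11 was 4.82 with PTH and 2.82 with YKL-05-093 on this scale, the reverse of the order in Rasl10b. Nr4a2 had the order of Rasl10b, with 2.39 for PTH and 2.96 for YKL-05-093.

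For Rasl11a, the nearest patterns were those of Rgs3 (distance 0.451), a regulator of G-protein signalling, Spry1 (0.494), a feedback inhibitor of receptor tyrosine kinase signalling, and 6330403L08Rik (0.607). Mean RPKM of Rgs3 was 1.35 in the vehicle libraries, 0.391 with PTH and 0.429 with YKL-05-093, and that of Spry1 was 4.98, 1.70 and 1.19. These distances describe 6 libraries and say nothing of shared control.

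**Figure D4:**
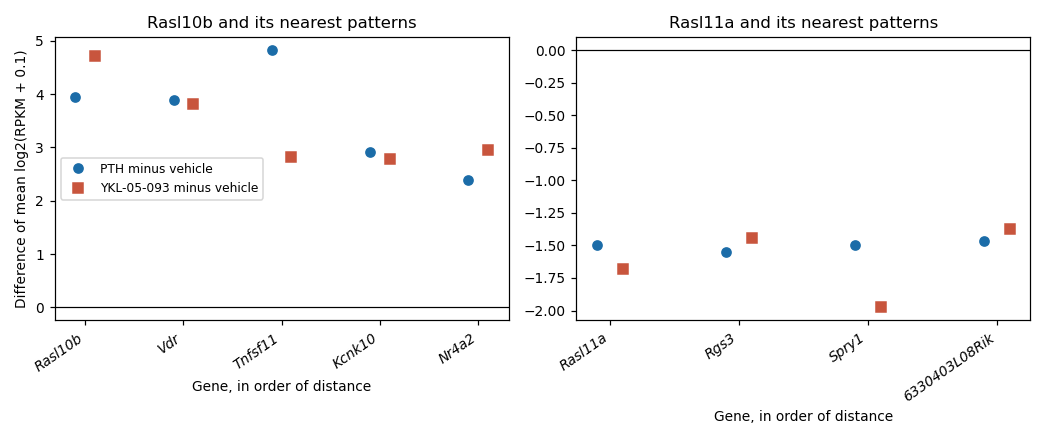
Difference of mean log2(RPKM + 0.1) from vehicle (vertical axis) with PTH (blue circles) and with YKL-05-093 (red squares) for Rasl10b and 4 of its 5 nearest genes (left) and Rasl11a and its 3 nearest (right), in order of distance (horizontal axis). Rasl10b lies at 3.94 and 4.71 beside Vdr at 3.90 and 3.81, and Spry1 lies lower after YKL-05-093 (-1.98) than after PTH (-1.50). The added 0.1 understates the rise of Rasl10b, which is low in vehicle.

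Of other RAS-family GTPases, none was called. Of 26 relatives, among them the RAP, RAL and RHEB groups, 20 were tested and 0 were called in any comparison by limma, with 3 at an unadjusted p under 0.05 for PTH, 3 for YKL-05-093 and 4 between them. Over all genes, 13.3%, 8.67% and 22.3% had such a p. The median log2 fold change of the relatives was -0.08 for PTH and -0.05 for YKL-05-093, beside -0.03 and -0.04 over all tested genes. Rap1b, a regulator of cell adhesion and the most abundant of them at a mean of 55.4 RPKM, changed by -0.05 and -0.07. Rras2, a close relative of classical RAS with 29.1 RPKM, had a log2 fold change of -0.04 for PTH and 0.71 for YKL-05-093 (adjusted p = 0.153 from limma).

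The calcium channel subunits on which the RGK proteins act were mostly low. Of 14 genes for high-voltage channel subunits, 5 passed the filter, and 0 were called in any comparison by limma. An unadjusted p under 0.05 was held by 1 for PTH, 0 for YKL-05-093 and 1 between the treatments. Such a p was held by 13.3%, 8.67% and 22.3% of all genes. The median log2 fold change of the 5 was -0.25 for PTH and 0.01 for YKL-05-093, beside -0.03 and -0.04 over all tested genes. For PTH, all 5 were lower, from -0.46 to -0.10. The beta subunit Cacnb3 was the highest at a mean of 10.7 RPKM, with a log2 fold change of -0.46 for PTH (adjusted p = 0.258 from limma), while YKL-05-093 gave -0.03. The auxiliary subunit Cacna2d1 had 3.68 RPKM and changes of -0.10 and 0.05.

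Among 22 genes for proteins that bind the members, such as calmodulins, 14-3-3 proteins and inhibitory G proteins, 18 were tested. Of these, 0 were called by limma in any comparison. An unadjusted p under 0.05 was held by 2 for PTH, 1 for YKL-05-093 and 6 between the treatments. Over all genes, 13.3%, 8.67% and 22.3% had such a p. The medians of the 18 genes were -0.20 for PTH and -0.13 for YKL-05-093, beside -0.03 and -0.04 over all tested genes. The calmodulin genes Calm2 (376 RPKM) and Calm3 (148 RPKM) were the most abundant, with log2 fold changes of -0.01 and -0.17 for PTH and of -0.09 and -0.05 for YKL-05-093. Nos1 and Nos1ap, which encode neuronal nitric oxide synthase and the adaptor that links it to RASD1, did not pass the filter.

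Summed markers of 2 other cell types were higher in the treated libraries, as Rasl10b was. The chondrocyte list (Acan, Col2a1 and Sox9, with Acan under 0.5 RPKM throughout) added up to 1.74 to 2.31 RPKM in the vehicle libraries, 3.08 to 3.12 in those of PTH and 3.13 to 3.38 in those of YKL-05-093. With PTH it was Col2a1 that was higher (1.71 and 1.54 RPKM against 0.625 and 0.577), while Sox9 stayed within its vehicle range. With YKL-05-093 most of the difference was in Sox9 (2.65 and 2.36 against 1.69 and 1.16). The endothelial list (Pecam1, Cdh5 and Kdr) added up to 0.513 to 0.652, 0.910 to 1.16 and 1.48 to 1.79 RPKM, nearly all of it from Kdr, with Cdh5 listed at 0 in all 6 libraries. The osteocyte and late osteoblast list, most of it Col1a1, added up to 466 to 569 RPKM in the vehicle libraries, 613 to 692 with PTH and 534 to 619 with YKL-05-093. Its members did not move together: with PTH, both libraries of Pdpn (171 and 163 against 53.1 and 71.3 RPKM), Bglap (27.1 and 25.3 against 6.61 and 11.5) and Phex (4.93 and 1.91 against 1.82 and 0.764) lay above both vehicle libraries. Those of Sp7 (12.2 and 11.1 against 46.0 and 45.5), Runx2 (7.87 and 7.02 against 19.5 and 13) and Pth1r (38.5 and 33.4 against 52.1 and 63.4) lay below. With YKL-05-093, Pdpn (95.8 and 93.1) and Phex (2.72 and 4.80) were again above both vehicle libraries. Sp7 (22.4 and 29.6), Runx2 (11.6 and 12.6) and Dmp1 (0.376 and 0.490 against 0.643 and 1.15) were below, while Bglap and Pth1r overlapped vehicle. The part of these markers in the result was not tested.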

How the data were processed

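Directional libraries were prepared from Ocy454 RNA after removal of ribosomal RNA. The authors aligned with STAR (mm10, GRCm38), obtained gene counts from HTSeq with Ensembl release 75, and deposited these as linear RPKM values. Per the submitters' processing notes, CASAVA 1.7 was also used. How gene length was taken and whether counting used the strand are not given in the sources used here.

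The members and lists were chosen with earlier results of these data known. Reads were recovered as the whole numbers that give all 6 RPKM values of a gene at 1 length, and added up to over 99.7% of the library totals. The recovery and the fit were tested on simulated data. A gene entered the test when 2 or more of the 6 libraries reached 0.5 RPKM. Testing was done with limma 3.58.1 (R 4.3.3) on log2(RPKM + 0.1), in separate fits of the 4 libraries of each comparison, with the prior variance as a trend on recovered reads and Benjamini-Hochberg adjustment. The main test was on the deposited RPKM, and the recovered reads were used for intervals, the trend and voom as an alternative. A gene at 0 in all 4 libraries was left out. Calls needed an adjusted p under 0.05 and more than 2-fold. An exact permutation test of 2 against 2 libraries cannot go below 0.333.

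Named genes are the 10 members, the 5 nearest patterns of Rasl10b, the 3 of any other called member, and from each list the called genes or, where none was called, the 2 with the highest RPKM. Of the nearest patterns of Rasl10b, 1 is not reported here. Positions are from GENCODE M21. The alternatives were other pseudocounts, filters, scalings and models of the spread, voom, a replicate block and each library left out.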

Additional observations from a re-analysis of the deposited data

How the results depend on the processing

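Counted without Rasl10b against vehicle, the number of members called, 1 for PTH, 1 for YKL-05-093 and 0 between them, was 0 and 0 against vehicle without the filter on low values and also 0 and 0 with the spread modelled on mean RPKM, and with no limit on the fold change it was 2 between the treatments. With 1 library left out, it was 0 to 1 for PTH, 0 to 1 for YKL-05-093 and 0 throughout between them.

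Over all genes, 272, 95 and 172 were called by limma for PTH, for YKL-05-093 and between them. Without the filter these were 0 and 0 against vehicle (2343 and 1734 at an unadjusted p under 0.05), and with the spread modelled on mean RPKM 160 and 6. For YKL-05-093, a pseudocount of 1 gave 55, a filter of 0.1 RPKM gave 57 and 1 fit of all 6 libraries 175. Between the treatments, a pseudocount of 1 gave 98, 1 fit gave 103 and no limit on the fold change 1421. With 1 library left out, the counts ran from 55 to 695 for PTH, from 20 to 332 for YKL-05-093 and from 0 to 179 between them, where the lone library is assumed to vary like the others and leaving out PTH replicate 1 or 2 gave 0 by limma, with 2151 and 2021 at an unadjusted p under 0.05. The cause was not tested.

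Same-numbered libraries did not deviate together (correlations from -0.05 to -0.03 over 14264 genes), so the numbers name libraries and pair none. A replicate block leaves 1 residual degree of freedom per gene. Against vehicle, limma then took the spread from the trend over all genes rather than from each gene. The total degrees of freedom were 14261 for PTH and 14255 for YKL-05-093. With the block, 440 genes were called for PTH, 215 for YKL-05-093 and 196 between them. Of the members other than Rasl10b, 1 was called for PTH and 1 for YKL-05-093 with the block, Rasl11a in both.

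Signs turned for Rasl10a without vehicle replicate 1 (from -0.14 to 0.68 over the libraries left out for PTH, from -0.15 to 0.66 for YKL-05-093) and for Rasl11a between the treatments without PTH replicate 1 (from -0.073 to 0.45), none of them called. Depth limits Rasd1, Rasd2, Rem1 and Rem2, and Rasl10b in vehicle, where each ratio rests on 17 reads.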

Other observations

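Among the 20 tested RAS-family relatives, 3 differed between PTH and YKL-05-093 at an adjusted p under 0.05 from limma, all lower after PTH and all by less than 2-fold, and were singled out after their values were seen. Rerg, a growth-inhibitory RAS-like GTPase, was lower by 0.90 on the log2 scale (adjusted p = 0.00406), and it was also the relative with the largest fall against vehicle, -0.94 for PTH (adjusted p = 0.0456) and -0.04 for YKL-05-093. Rras2 differed by -0.75 and Rasl12 by -0.76 (adjusted p = 1.98e-06 and 0.00105). From the other lists, Cacnb3 (-0.42) and Ywhah (-0.37) were also lower after PTH (adjusted p = 0.00413 and 0.00092 from limma). Slc11a2 (0.36) and Ezr (0.38) were higher after PTH (adjusted p = 0.00598 and 0.00686 from limma). The alternatives are not given for any of these genes. Over all genes, 9.97% had an adjusted p under 0.05 in this comparison.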
